A study of Mus musculus with 24 samples.

Results

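H3K27ac, the acetylation of histone H3 lysine 27 that marks active promoters and enhancers, was examined at 10 genes of the AMPK pathway in mouse quadriceps myofibers. The genes were the 7 genes of the AMPK subunits (Prkaa1, Prkaa2, Prkab1, Prkab2, Prkag1, Prkag2 and Prkag3), the upstream kinase gene Stk11 and the adiponectin receptor genes Adipor1 and Adipor2. A peak was assigned to a gene when it overlapped by at least 1 bp the gene body or the 10 kb on either side of a curated RefSeq start. By this rule 431 of the 469078 peaks in the 8 peak lists of the series lay at these genes, and 10 of 21000 protein-coding genes with a curated start were described.

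The lists came from 8 groups of C57BL/6 mice (C57BL/6J in the study's methods) that were 10 weeks old when treatment began. Male and female mice received prednisone, a synthetic glucocorticoid, as 5 weekly intraperitoneal injections of 1 mg/kg. In the study's methods, weekly treatment also had vehicle injections on the days between doses. The methods give the number of 5 for 4-week treatments that ended 2 days after the last dose. Here the left quadriceps was taken 4, 6 or 8 days after the last prednisone injection. Vehicle groups of each sex received vehicle (DMSO in PBS) only. Each group had 2 H3K27ac libraries and 1 input library, and the deposited peaks were 1 list per group, so no value below has a replicate error and no difference between groups was tested. Myofibers were prepared by collagenase digestion and retained on a strainer, and other cell types of the muscle that stay with the fibers are part of each list. In such bulk material, a mark carried by fewer cells and a weaker mark in every cell cannot be told apart.

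AMPK is a heterotrimeric kinase that senses falling cellular energy. Its catalytic alpha subunit is paired with a beta scaffold subunit, which binds glycogen, and a gamma subunit, which binds adenine nucleotides. Stk11 encodes LKB1, the main kinase that phosphorylates and activates the alpha subunit in muscle. The alpha subunit of Prkaa2, the beta subunit of Prkab2 and the gamma subunit of Prkag3 are the forms typical of skeletal muscle, and Prkag3 is most abundant in fast glycolytic fibers. Adiponectin, a hormone of adipocytes, acts on muscle mainly through AdipoR1 and on liver mainly through AdipoR2, with activation of AMPK among its effects.

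The lists differed in depth and length. H3K27ac depth ranged from 7.52 M tags in the male day 4 list to 50.5 M in the male day 6 list, the number of peaks from 17482 at male day 4 to 123249 at female day 6, and the share of tags inside peaks from 5.39% at male day 6 to 47.3% at female day 6. Because of these differences, tag densities are given for each list and are not read as levels of acetylation across lists. A density is the number of tags in a peak per 10 M tags of the library and per kb of peak, and its percentile ranks the peak among all peaks of the same list. Of 10 myofiber marker genes, between 6 and 9 had a promoter peak in the other 7 lists and 2, Atp2a1 and Pvalb, in the male day 4 list. All 4 endothelial markers had a promoter peak in the male vehicle list and in the 3 lists of treated females, against 2 at male day 6, 1 in female vehicle and 0 at male days 4 and 8. The lists with all 4 marked were also the longest. Between 48.9% and 66.8% of all genes had a promoter peak in them, against 24.4% to 31.9% in the other lists. The marker counts are thus not read as amounts of a cell type. The number of marked adipocyte genes ranged from 0 to 2 of 5, of fibroblast genes from 0 to 4 of 5, of macrophage genes from 0 to 1 of 4, and of satellite cell genes from 0 to 3 of 3. The markers with no promoter peak in any list were Myh1 of the myofiber genes, Adipoq and Cidec of the adipocyte genes, Lum of the fibroblast genes and Adgre1, Csf1r and Ptprc of the macrophage genes. The part of these cells in the results below was not tested.

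A promoter, taken from 1 kb before to 100 bp after a curated start, carried a deposited H3K27ac peak at 6 or more of the 10 genes in every list. In males, 9 of 10 genes had a promoter peak with vehicle, where the share of all genes was 48.9%. The male counts after treatment were 7 of 10 at day 4 (27% of all genes), 9 of 10 at day 6 (28.1%) and 8 of 10 at day 8 (31.9%). In females, 6 of 10 genes had a promoter peak with vehicle (24.4% of all genes), and all 10 had one at day 4 (51.0%), day 6 (66.8%) and day 8 (59.7%). The rise from 6 to 10 in females thus ran alongside a rise over all genes. Among peaks with a fold over input of at least 4, the male counts were 8, 7, 5 and 2 of 10, where the shares of all genes at that threshold were 36.6%, 27%, 13.1% and 20.2%. The female counts stayed at 6, 10, 10 and 10, where the shares were 22.3%, 45.8%, 63.0% and 59.1%. At male day 8 the count at the 10 genes was thus near the share of all genes.

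**Figure D1:**
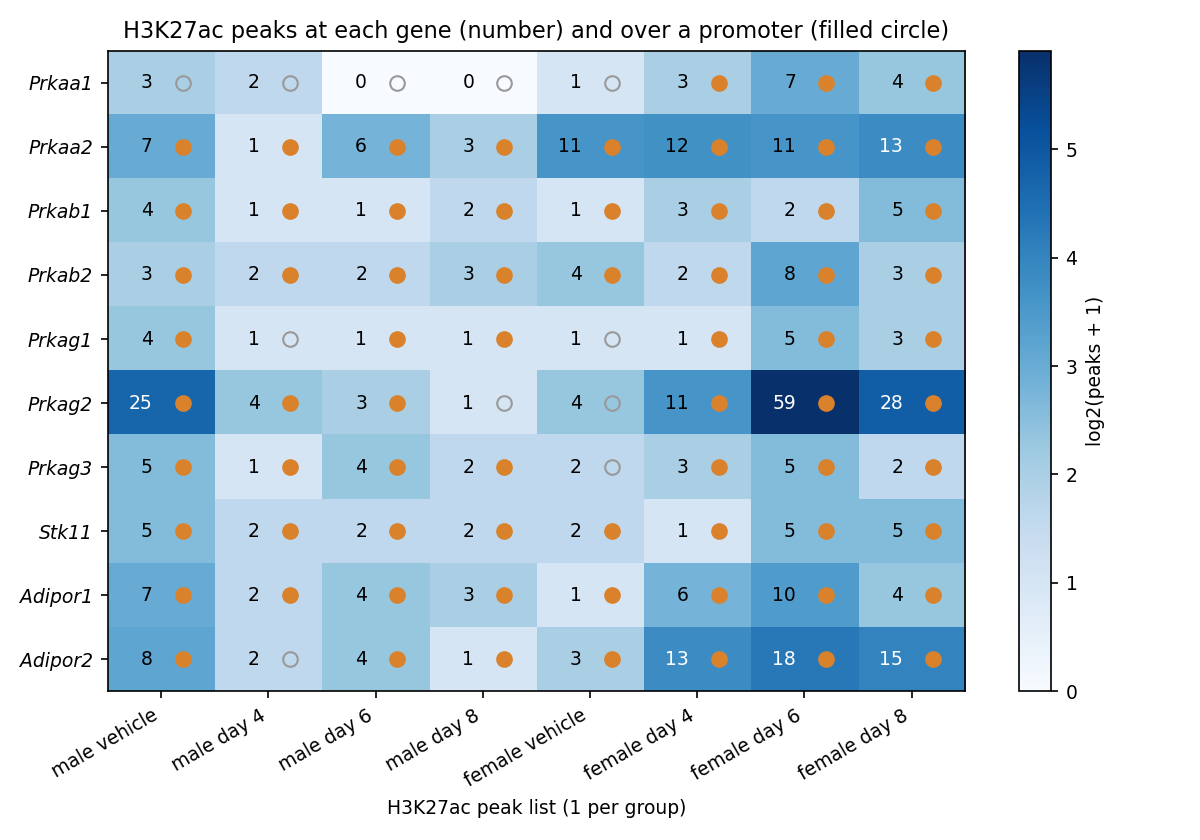
Each cell gives the number of H3K27ac peaks at a gene (rows) in the list of a group (columns), with the shading on a log2(peaks + 1) scale, and a filled circle marks a peak over a promoter. Prkaa2, Prkab1, Prkab2, Stk11 and Adipor1 have filled circles in all 8 lists, Prkaa1 in the lists of treated females alone, and Prkag2 reaches 59 peaks at female day 6.

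**Figure D2:**
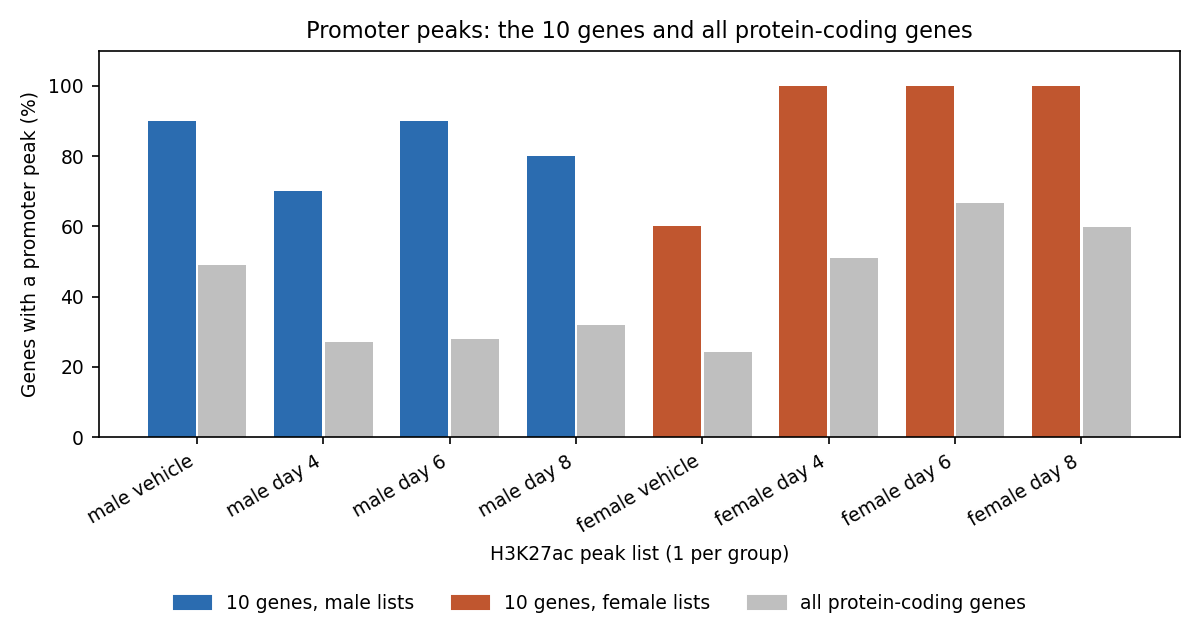
The bars give the percent of genes with a promoter peak in each list, for the 10 genes (blue for male lists, orange for female lists) and for all 21000 protein-coding genes (grey). The 10 genes stand above all genes in every list, from 6 of 10 in female vehicle to 10 of 10 in the 3 lists of treated females. Of all genes, 28.2% had no promoter peak in any list.

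Nearly every gene had at least 1 peak by the assignment rule in every list, and the exception was Prkaa1 at male days 6 and 8. With vehicle, 10 of 10 genes had a peak in males (77.0% of all genes) and 10 of 10 in females (55.3%). In treated males 10 genes had one at day 4 (46.9%), and 9 genes each at day 6 (51.6%) and day 8 (50.0%). In treated females all 10 genes had one at day 4 (72.8%), day 6 (80.2%) and day 8 (75.0%). The number of peaks at the 10 genes was 71, 18, 27 and 18 in males (vehicle, days 4, 6 and 8) and 30, 55, 130 and 82 in females. These numbers mostly followed the lengths of the lists. When every list was reduced to the 17482 peaks of highest findPeaks score, the length of the shortest list, the counts lay between 15 and 20 in males and vehicle females and between 13 and 18 in treated females. The genes with a promoter peak then numbered 6, 7, 8 and 8 in males and 5, 4, 5 and 6 in females, where the shares of all genes were 27.5%, 27%, 24.9% and 31.3% in males and 18.8%, 30.2%, 30.9% and 30.4% in females. This ranking dropped peaks with many tags, such as those over the Prkab1 start at female day 4 and the Stk11 start at female day 8. When the lists were reduced to the same length by tags per kb, an alternative chosen after seeing the data, the genes with a promoter peak numbered 5, 7, 9 and 8 in males (21.1%, 27%, 26.6% and 30.9% of all genes) and 4, 7, 8 and 8 in females (16.7%, 39.3%, 47.0% and 46.6%). Whether more of the 10 genes were marked in treated than in vehicle females at equal length thus depended on how the peaks were ranked.

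Per length of gene window, the 10 genes held more peaks than all genes together in each of the 8 lists. All genes include those with no promoter peak in any list, 28.2% of them, so this is not read as particular to the 10 genes. Their windows held 11.7, 2.96, 4.44 and 2.96 peaks per 100 kb in males and 4.94, 9.05, 21.4 and 13.5 in females, against 5.78, 1.38, 2.14 and 1.53 in males and 2.36, 4.69, 8.53 and 5.95 in females over the windows of all genes. The promoter peaks were also ranked by their findPeaks score, a number the peak caller gives that followed the tags of a peak only in part (Spearman's rho between 0.46 and 0.72 across the peaks of a list, a description). Their median score percentile within a list ran from 62.5 at male day 8 to 91.9 at female day 8, where the medians over all genes with a promoter peak were 78.2 and 79.6. It equalled that of all such genes in 2 lists, was lower in 4 and higher in 2.

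The catalytic subunit genes had different promoters and different patterns. Both are shown as the 250 bases before the start in the direction of transcription (RefSeq, GRCm38.p6, the build of the lists), with GC boxes (GGGCGG on either strand) in capitals. Prkaa1 (chr15:5143611-5143860, plus strand) and Prkaa2 (chr4:105109899-105110148, minus strand) read:
Prkaa1: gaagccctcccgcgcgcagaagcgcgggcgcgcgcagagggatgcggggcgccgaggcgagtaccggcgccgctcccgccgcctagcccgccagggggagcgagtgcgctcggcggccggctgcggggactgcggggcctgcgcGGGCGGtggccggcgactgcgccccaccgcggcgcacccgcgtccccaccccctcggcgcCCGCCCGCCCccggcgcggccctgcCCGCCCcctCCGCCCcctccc
Prkaa2: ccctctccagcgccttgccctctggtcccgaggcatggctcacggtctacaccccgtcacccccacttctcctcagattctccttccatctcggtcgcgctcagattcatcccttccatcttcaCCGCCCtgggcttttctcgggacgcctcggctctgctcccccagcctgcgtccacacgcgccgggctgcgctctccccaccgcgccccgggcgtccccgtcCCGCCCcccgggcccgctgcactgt
The Prkaa1 sequence was 85.2% G and C with 45 CpG dinucleotides and 5 GC boxes, and 99.8% of all 26237 starts had a lower GC content in this window. The Prkaa2 sequence was 70.0% G and C with 24 CpG dinucleotides and 2 GC boxes, and 87.4% of starts were lower. A GC box was present at 43.8% of all starts and at 8 of the 13 starts of the 10 genes whose sequence was searched.

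Prkaa2 (gene body chr4:105029649-105109898) had a promoter peak in all 8 lists, a pattern it shared with 12.6% of all genes. In the male lists, the density of this peak was 34.3, 27.8, 16 and 15.3 tags per kb (vehicle, days 4, 6 and 8). In the female lists it was 23.9, 18.5, 66.6 and 37.2 in the same order. Ranked within its own list, the peak stood between the percentiles 82.8 and 97.3 in 6 lists, at 58.4 at male day 8 and at 40.6 at male day 4, where it rested on 38 tags (27.8, 95% exact Poisson interval 19.7 to 38.2, counting error only). Its width was 2.37 kb in female vehicle, 9.9 kb at female day 4, 2.62 kb at day 6 and 6.58 kb at day 8. Beyond the promoter, 2 intronic stretches of Prkaa2 recurred across lists. One, chr4:105098281-105102760, centred 9.38 kb downstream of the start, was marked in 7 lists, all but male day 4. The other, chr4:105071218-105073354, centred 37.6 kb downstream, was marked in 6 lists, the 4 female lists and male vehicle and day 6. The number of Prkaa2 peaks was 7, 1, 6 and 3 in males and 11, 12, 11 and 13 in females. The female numbers were alike but the peaks were not all the same ones. Of the 12 day 4 peaks 7 were absent with vehicle, where 81.9% of all female day 4 peaks were. Of the 11 vehicle peaks 4 were absent at day 4, where 63.4% of all female vehicle peaks were. Peaks covered 11.3%, 24.7%, 11.9% and 24.9% of the Prkaa2 window in the female lists.

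Prkaa1 (chr15:5143861-5181899), the gene of the widely expressed alpha subunit, had a promoter peak in 3 lists, those of females at days 4, 6 and 8. The densities were 11.4 (7.6 to 16.5), 22.6 (18.2 to 27.7) and 15.3 (12.9 to 17.9) tags per kb. The same pattern, marked in treated females and in no other list, was found at 3.6% of all genes. The day 4 peak, chr15:5143961-5144461, began at the edge of the promoter window, just inside the gene, and the later peaks spanned the start. In other lists peaks lay outside the window. Male vehicle had a peak at chr15:5141750-5142250 and male day 4 one at chr15:5142096-5142596, both upstream of the window, and female days 6 and 8 had peaks there as well. When predicted transcript models were counted as starts, all 10 genes had a promoter peak in male vehicle, so the restriction to treated females depended on the curated start. A further Prkaa1 stretch, with peaks centred between 14.3 kb and 15.6 kb into the gene, was marked in male vehicle and at female days 4, 6 and 8, with a density of 41.6 tags per kb at female day 6.

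**Figure D3:**
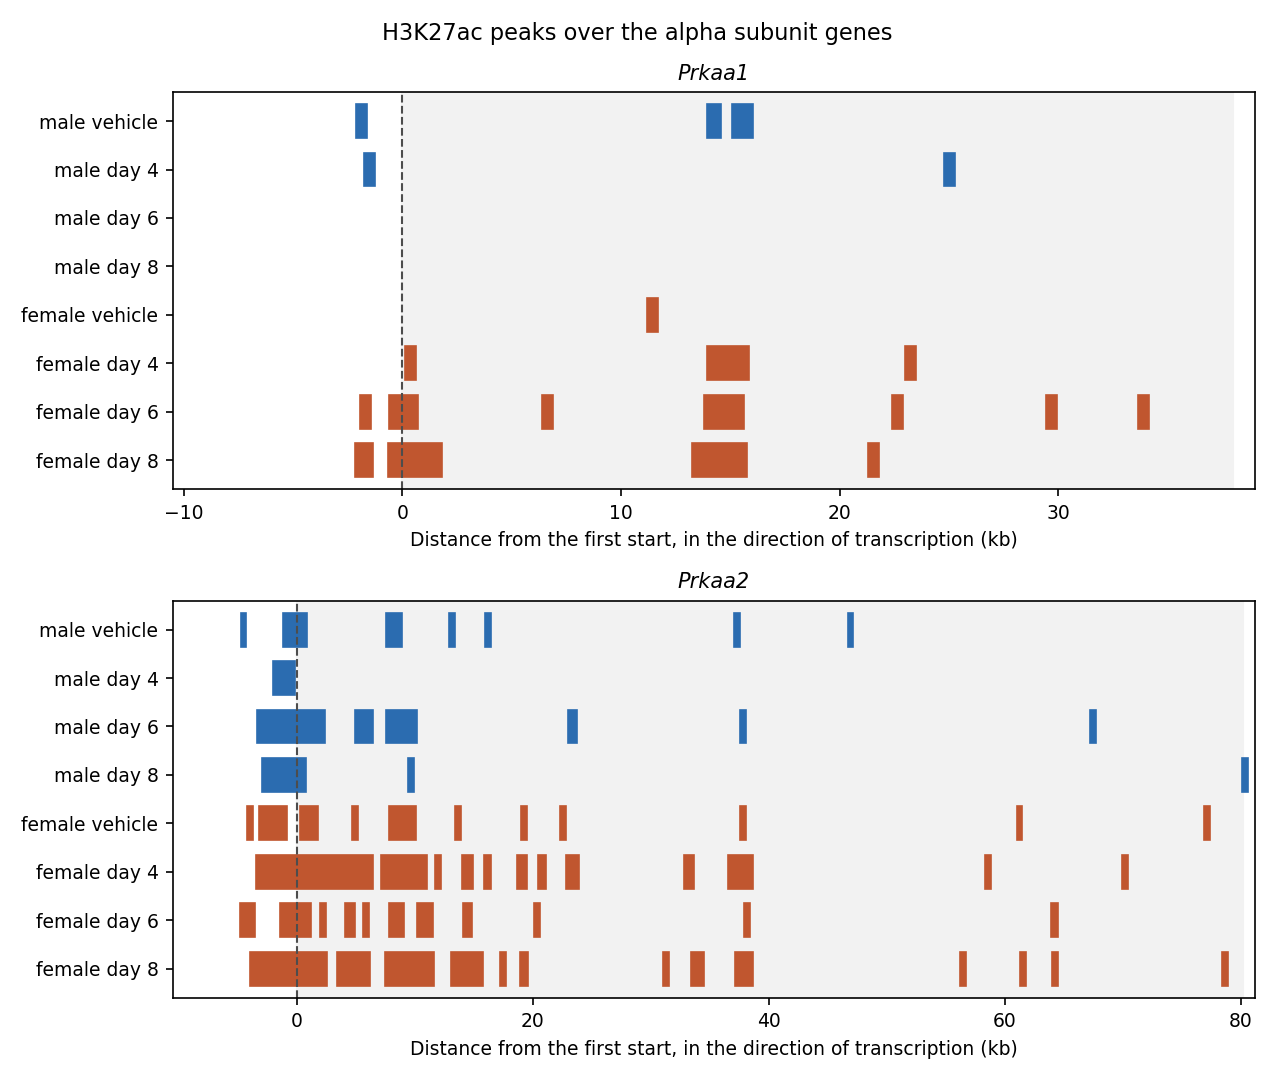
Each rectangle is an H3K27ac peak of one list (rows, blue for male and orange for female), placed by its distance in kb from the gene's start (dashed line) in the direction of transcription, and the shaded area is the gene body. The Prkaa2 start lies under a peak or within 1 kb of one in every list, whereas the Prkaa1 start is covered at female days 6 and 8 and a peak begins just inside it at female day 4.

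Both beta subunit genes had a promoter peak in all 8 lists. At Prkab1 (chr5:116013590-116024428), the gene of the more widely expressed beta subunit, densities were 36.8, 26.6, 21.4 and 14.3 tags per kb in males (vehicle, days 4, 6 and 8) and 26.5, 21.5, 40.6 and 34.9 in females. At Prkab2 (chr3:97658212-97673083), the muscle form, they were 21.2, 42.6, 12.3 and 15.9 in males and 13.0, 21.7, 38.6 and 30.4 in females. Those for male day 4 rested on 10 and 16 tags, and their intervals, 12.8 to 48.9 and 24.3 to 69.1, overlapped. The Prkab2 peak measured 1.62 kb in female vehicle, 4.11 kb at day 4, 2.79 kb at day 6 and 5.26 kb at day 8, and a separate female vehicle peak at chr3:97659626-97661106 lay in the stretch that the day 4 and day 8 peaks cover.

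Among the gamma subunit genes, Prkag3 and Prkag1 had short single loci and Prkag2 a long one with 3 starts. Prkag3 (chr1:74738922-74748955) had a promoter peak in 7 lists, with densities of 31.6, 27.1, 17.4 and 18.4 tags per kb in males and 17.3, 44.2 and 27.5 at female days 4, 6 and 8. In female vehicle the nearest peak, chr1:74747946-74748598 with 17.3 tags per kb, lay inside the gene just beyond the promoter window. The peak over the Prkag3 start measured 5.91 kb, 6.04 kb and 11.9 kb in treated females and between 1.29 kb and 2.86 kb in males. At female day 8, 76.0% of the Prkag3 window lay under peaks, which was 7.07% in female vehicle. Over the windows of all genes this share was 8.6% at female day 8 and 1.79% in female vehicle, and the median width of a promoter peak was 1.63 kb, 1.82 kb and 1.91 kb in treated females and 0.801 kb in female vehicle, so that wider peaks were found across the genome in these lists. Prkag1 (chr15:98812797-98831508), the common gamma subunit, had a promoter peak in 6 lists and none at male day 4 or in female vehicle. At male day 4 a peak of 12 tags, chr15:98830796-98831296, lay just inside the gene, and in female vehicle the sole peak was intronic, 6.11 kb from the start. With a promoter taken as 500 bp on either side of a start, the counts were 8 of 10 genes at male day 4 (29.9% of all genes) and 8 of 10 in female vehicle (26.6%), with no change in the other lists.

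The 3 starts of Prkag2 (chr5:24862735-25100642), a gamma subunit with long and short forms, were marked in different lists. Its first start, at position 25100642, and its last start, 192 kb further into the gene at 24908509, are shown with GC boxes and CCAAT boxes (CCAAT on either strand) in capitals, as the 250 bases before each start on the minus strand (chr5:25100643-25100892 and chr5:24908510-24908759, GRCm38.p6):
Prkag2 first start: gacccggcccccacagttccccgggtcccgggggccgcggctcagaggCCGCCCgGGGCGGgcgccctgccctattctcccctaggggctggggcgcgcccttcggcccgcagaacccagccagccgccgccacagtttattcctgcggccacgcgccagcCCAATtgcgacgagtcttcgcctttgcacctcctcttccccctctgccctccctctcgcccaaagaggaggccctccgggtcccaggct
Prkag2 last start: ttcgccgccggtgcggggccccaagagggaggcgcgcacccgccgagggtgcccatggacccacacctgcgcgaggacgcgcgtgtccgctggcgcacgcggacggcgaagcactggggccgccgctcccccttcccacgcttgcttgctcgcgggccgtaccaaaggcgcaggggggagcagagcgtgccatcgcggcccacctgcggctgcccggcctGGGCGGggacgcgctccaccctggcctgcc
The first start was marked at female days 4, 6 and 8 alone, with 11.4, 22.5 and 15 tags per kb. The middle start, 105 kb into the gene, was marked at female days 6 and 8, with 28.0 and 15.1 tags per kb. The last start was marked in 6 lists, with 19.1, 29.2 and 15.4 tags per kb at male vehicle and days 4 and 6 and with 11.6, 44.7 and 35.4 at female days 4, 6 and 8. Male day 4 had 2 peaks there, and the value is that of the higher score, which rested on 11 tags (95% interval 14.6 to 52.4). In female vehicle a peak at chr5:24907872-24908372 lay just inside that start. Of the upstream sequences, the first was 73.2% and the last 77.2% G and C, against a median of 56.0% over all starts. The middle start was 48.4% G and C with 4 CpG dinucleotides. The whole gene held 25, 4, 3 and 1 peaks in males and 4, 11, 59 and 28 in females, so that 135 of the 431 peaks were at Prkag2, whose window is also the longest at 248.0 kb.

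Stk11 (chr10:80115795-80130679) had a promoter peak in all 8 lists. The densities were 34.4, 24.5, 21.0 and 19.9 tags per kb in males and 16.7, 20.5, 64.4 and 40.2 in females. The peak reached from 1.87 kb in female vehicle to 8.34 kb, 8.9 kb and 8.15 kb at female days 4, 6 and 8 and covered the first part of the gene. In males it was widest with vehicle, at 5.68 kb. At female day 6 another peak of the Stk11 window extended to the start of the neighbouring gene Sbno2.

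Adipor1 (chr1:134415378-134433351) had a promoter peak in all 8 lists, at both of its starts, which lie 0.286 kb apart. The densities were 20.2, 17.9, 16.5 and 20.1 tags per kb in males and 32.3, 17, 48.4 and 28.4 in females. Ranked within its own list, the peak stood at the percentiles 19.9, 0.715, 84.2 and 86.3 in males and between 89.0 and 99.0 in females. By tags per kb, the male vehicle and day 4 peaks were thus among the less dense of their lists, and the others among the denser. By findPeaks score the order differed. The score percentiles were 94.0, 23.4, 26.9 and 51.2 in males and 23.1, 92.8, 95.7 and 13.5 in females, so the rank depended on the measure. The male day 4 peak rested on 18 tags (17.9, 95% interval 10.6 to 28.3). A peak 8.17 kb upstream of Adipor1, within chr1:134405454-134408956, was marked in 6 lists and covered the start of the neighbouring gene Cyb5r1, so it cannot be assigned to Adipor1 alone.

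Adipor2 (chr6:119353150-119417528) has 2 curated starts 28.8 kb apart, and the second, marked in the larger number of lists, is shown as the 250 bases before it on the minus strand (chr6:119388735-119388984, GRCm38.p6), without capitals since none of the searched motifs was in it:
Adipor2 second start: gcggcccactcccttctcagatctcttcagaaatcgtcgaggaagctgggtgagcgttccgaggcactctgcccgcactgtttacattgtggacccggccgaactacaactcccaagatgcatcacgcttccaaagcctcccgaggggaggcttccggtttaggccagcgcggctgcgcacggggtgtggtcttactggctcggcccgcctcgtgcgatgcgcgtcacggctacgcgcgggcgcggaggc
The first start was marked in 4 lists, male day 6 and female days 4, 6 and 8, with 11.5, 10.5, 31.5 and 15.3 tags per kb. The second start was marked in 7 lists, all but male day 4, with 17.7, 9.5 and 13.1 tags per kb in males (vehicle, days 6 and 8) and 24, 12.9, 41.3 and 18.9 in females. The sequence of the second start had 27 CpG dinucleotides and 64.8% G and C, where the median GC content over all starts was 56.0%. Adipor2 held 8, 2, 4 and 1 peaks in males and 3, 13, 18 and 15 in females. An intronic peak, chr6:119385198-119385970, was found in male vehicle and at male day 4 and in no female list.

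**Figure D4:**
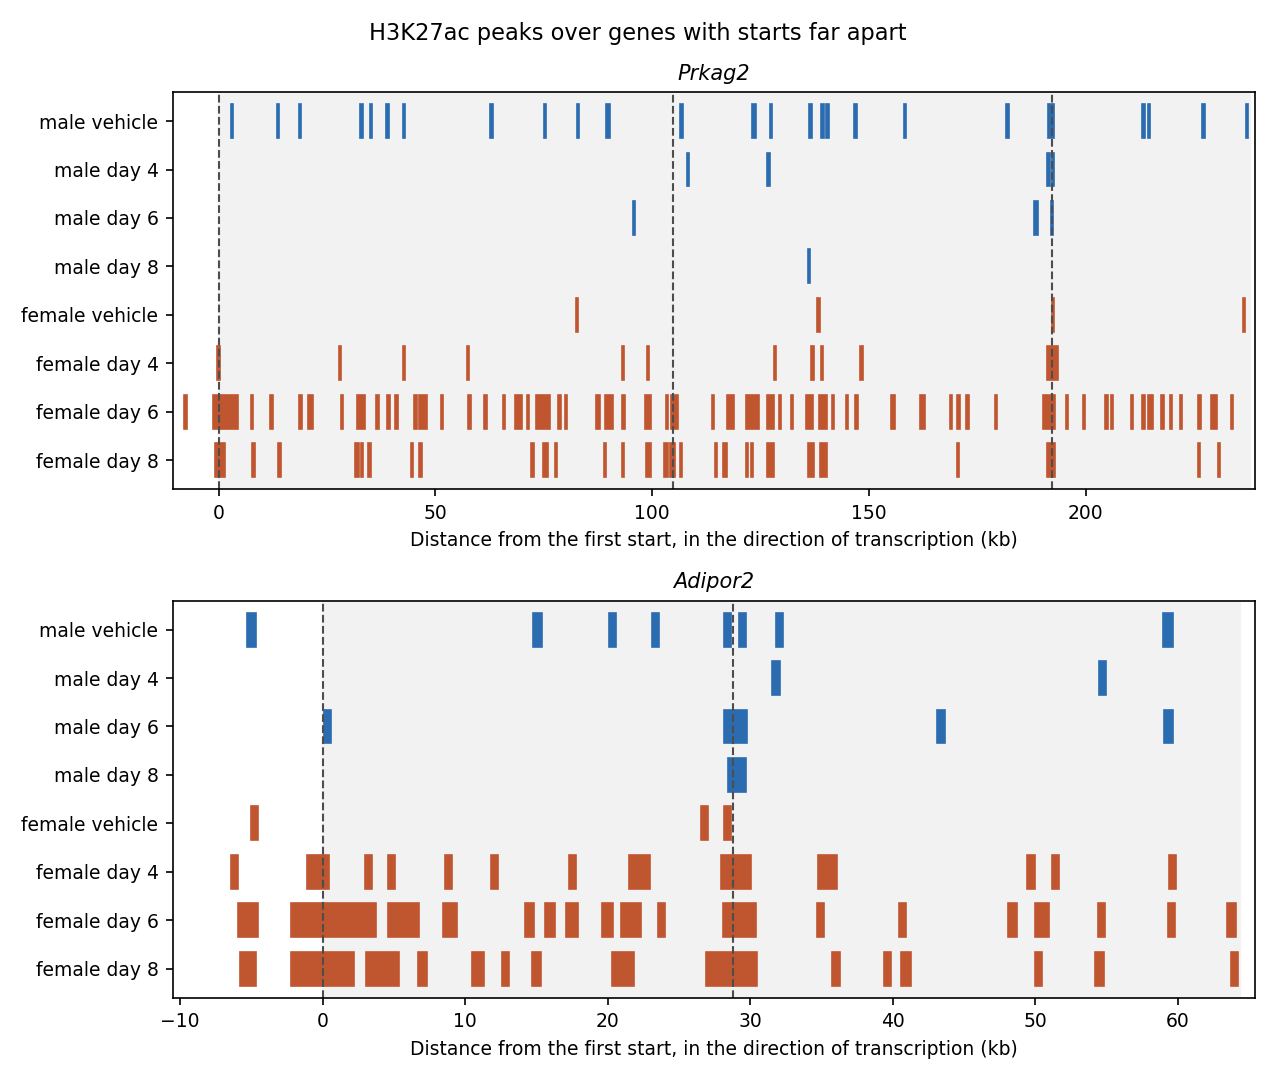
Each rectangle is an H3K27ac peak of one list (rows, blue for male and orange for female), placed by its distance in kb from the gene's first start in the direction of transcription. Dashed lines mark the curated starts and the shaded area the gene body. The first start of Prkag2 is covered in the 3 lists of treated females, and the second start of Adipor2 carries a peak in all lists but male day 4.

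Merging the peaks of all lists gave 177 regions at the 10 genes. Of these, 103 (58.2%) were marked in 1 list, where the share over the 250070 regions of the genome was 70.6%. In 6 or more lists 12 were marked (6.78%, genome 4.42%), and 9 of the 12 lay over a promoter (62.3% of such regions in the genome). Regions marked in at least 2 female lists and no male list numbered 23 (13.0%, genome 10.3%), of which 21 held no female vehicle peak (89.5% of such regions in the genome). Regions marked in at least 2 male lists and no female list numbered 1 (0.565%, genome 0.28%). The female regions lay at Prkag2 (10), Adipor2 (6), Prkaa2 (5), Prkaa1 (1) and Prkab1 (1).

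The study named peaks present at day 4 and absent with vehicle prednisone-responsive enhancers (PREs) and asked how long they last. At the 10 genes, 7 of 18 male day 4 peaks were PREs (38.9%, against 45.4% of all day 4 peaks). Of these 7, 1 was present at day 6 (5.84% of all male PREs) and 1 at day 8 (5.01%), the same peak (1.7% of all male PREs were present at both days), in an intron of Prkab2 at chr3:97661503-97662003 with 9 tags at day 4. The other 6 lay in introns of Prkaa1, Prkag1, Prkag2 (2), Stk11 and Adipor2. In females, 42 of 55 day 4 peaks were PREs (76.4%, against 81.9% of all). Of the 42, 28 were present at day 6 (50.3% of all female PREs) and 23 at day 8 (43.6%), and 20 were present at both (37.7%). The female PREs lay at 8 genes, with 12 at Adipor2, 10 at Prkag2, 7 at Prkaa2, 5 at Adipor1, 3 at Prkaa1, 2 each at Prkab1 and Prkag3 and 1 at Prkag1. Prkab2 and Stk11 had none, since all their day 4 peaks overlapped vehicle peaks.

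By position, 33 of the 42 female PREs were intronic, 4 upstream, 3 over a promoter and 2 over an exon. A promoter PRE of females was kept at days 6 and 8 at Prkag1 (17.1 tags per kb at day 4), at the first start of Prkag2 (11.4), at the first start of Adipor2 (10.5) and, at the edge of the promoter window, at Prkaa1 (11.4). No share of all promoter PREs is given here, so this is not read as particular to these genes. Vehicle peaks that were absent at day 4 were also counted. In males 61 of 71 were absent (85.9%, against 89.7% of all vehicle peaks), of which 8 were present again at day 6 and 6 at day 8, where 7.5% and 5.67% of all absent male vehicle peaks were. In females 12 of 30 were absent (against 63.4% of all), of which 3 were present again at day 6 and 5 at day 8, where 11% and 10.6% of all absent female vehicle peaks were. The small numbers at the 10 genes limit the comparison with these shares. When every list was cut to equal length by score, 11 of 18 male and 11 of 13 female day 4 peaks were PREs (69.4% and 71.3% of all), with 2 male and 4 female ones still found at day 8 (20.1% and 37.3% of all PREs). By tags per kb the PREs were 13 of 18 in males and 5 of 13 in females (76.1% and 67.2%), with 3 in each sex at day 8 (22.4% and 60.0%). Vehicle peaks absent at day 4 were 11 of 17 in males and 13 of 15 in females by score (71.1% and 67.5% of all). By tags per kb they were 15 of 20 and 6 of 15 (77.6% and 63.1%). The female share was thus above that of all peaks by score, and below it by tags per kb and in the full lists.

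**Figure D5:**
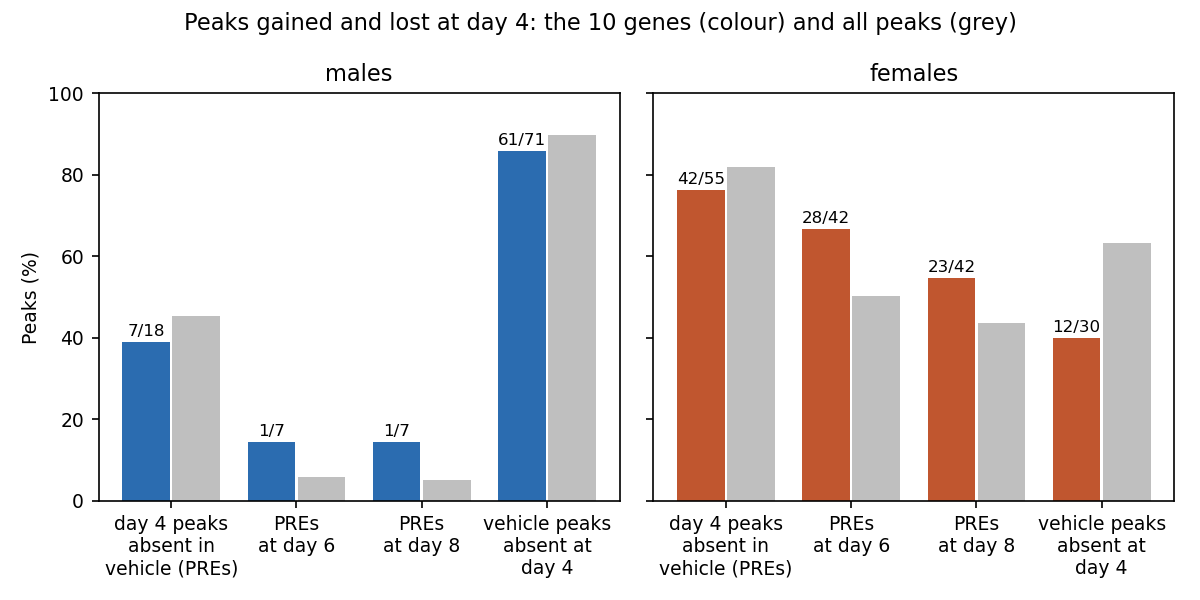
The bars give, for males and females, the percent of day 4 peaks absent in vehicle (PREs), of PREs present at days 6 and 8, and of vehicle peaks absent at day 4, for the 10 genes (colour, with counts) and for all peaks (grey). In females 28 and 23 of 42 PREs are present at days 6 and 8, and in males 1 and 1 of 7.

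The glucocorticoid receptor binds DNA as a dimer at a palindromic element, written here as ACANNNTGT (the same on both strands). None of the 13 searched starts of the 10 genes held this sequence in its 250 upstream bases, where 5.07% of all starts did. Also without a match at all 13 starts were the MEF2 consensus (0.469% of starts), the ERR site TCAAGGTCA (0.343%) and the NRF1 consensus (5.14%). At shares this low, the absence of these 4 sequences from 13 starts is not read as a trait of the genes. The first start of Adipor2, at position 119417528, was not among the starts searched. A CCAAT box was present at 5 of 13 starts (34.8% of all). Within PREs, the ACANNNTGT sequence was found in 1 of 7 in males (13.4% of all male PREs) and in 5 of 42 in females (11.9%, against 20.6% of all female PREs). Among these, the female PREs present on both later days were one in Prkag3 (chr1:74739820-74742191) and one in Adipor2 (chr6:119381406-119382777). Their 4 matches are shown in capitals in 41 bases of the minus strand, at chr1:74741208-74741248, chr6:119382010-119382050, chr6:119382104-119382144 and chr6:119382446-119382486 (GRCm38.p6):
Prkag3 intron, 7.73 kb: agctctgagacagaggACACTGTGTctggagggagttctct
Adipor2 intron, 6.7 kb: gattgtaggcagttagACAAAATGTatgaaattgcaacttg
Adipor2 intron, 6.61 kb: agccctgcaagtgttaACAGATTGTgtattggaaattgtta
Adipor2 intron, 6.27 kb: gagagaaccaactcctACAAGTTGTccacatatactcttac
The distances are those from the nearest start, downstream. The Prkag3 match lay under the peaks of both later days. In Adipor2 the overlapping day 6 peak (chr6:119382341-119382841) held only the match at 6.27 kb. The overlapping day 8 peak there (chr6:119381258-119381758) held no match. These are letters in a sequence and not measured binding of the receptor. Over all peaks of the 10 genes, matches numbered between 0.152 per kb at male day 8 and 0.317 per kb at female day 6, where all peaks of those lists had 0.257 and 0.3.

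Genes around AMPK were counted by their promoter peaks in the same way, and their counts stand beside the shares of all genes given for each list above. Among 7 genes upstream of AMPK, promoter peaks were found at 5, 3, 5 and 6 in males and at 4, 6, 7 and 6 in females. Map3k7, which encodes the kinase TAK1, and Stradb, which encodes a partner of LKB1, were marked in all 8 lists. Cab39, the gene of the LKB1 partner MO25 alpha, was marked in all but female vehicle. Camkk2, the calcium-responsive AMPK kinase, was marked at male day 8 and female days 4, 6 and 8, and its relative Camkk1 at female day 6 alone.

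Among 9 genes of adiponectin signalling, promoter peaks numbered 4, 0, 2 and 4 in males and 0, 5, 7 and 7 in females. The adiponectin gene Adipoq was marked in no list. The adaptor genes of the adiponectin receptors, Appl1 and Appl2, were marked at male days 6 and 8 and female days 4, 6 and 8, and Appl2 also with vehicle in males. Paqr3, a member of the receptor family, was marked at female days 4, 6 and 8 alone, and Paqr7 in those lists and in male vehicle and day 8.

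Among 21 genes of AMPK substrates and effectors, promoter peaks numbered 18, 13, 13 and 14 in males and 11, 19, 20 and 20 in females. Cpt1b, which encodes the muscle carnitine palmitoyltransferase of mitochondrial fatty acid import, and the folliculin complex genes Flcn and Fnip1 were marked in all 8 lists. Acacb, the acetyl-CoA carboxylase gene typical of muscle, was marked at female days 6 and 8, and Acaca, its lipogenic relative, in no list. Among 12 AMPK-related kinases, which LKB1 also activates, promoter peaks numbered 5, 6, 5 and 7 in males and 2, 8, 12 and 10 in females. The same shares of all genes apply to these counts. Nuak1 was marked in all 8 lists, Brsk1 at female days 6 and 8, and Mark2, Mark3 and Mark4 in 4, 6 and 4 lists.

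For 3 genes the promoters most alike in pattern were sought, among genes marked in exactly the same lists, by the mean difference of the score percentile over those lists. For Prkaa2, over 8 lists and 2641 candidates, these were Map1lc3b (7.72 percentile points), Rabggtb (8.0) and Ccser2 (8.39). For Adipor1, over the same lists, they were Acvr1b (8.68), Kbtbd4 and Ndufs3 (both 9.68). For Prkag3, over 7 lists and 757 candidates, they were Cyhr1 (7.99), Pitx3 (9.84) and Pfkl (9.99).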

How the data were processed

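Quadriceps myofibers were profiled by the authors with H3K27ac ChIP-Seq, with 16 H3K27ac and 8 input libraries in 8 groups. Per the study's methods, reads were trimmed with homerTools, aligned to mm10 with Bowtie2 (2.2.6 in the submitters' processing notes, which also name TopHat2 2.1.0), and peaks were called with HOMER findPeaks in histone style at a fold over input of at least 2. The step that joined both libraries of a group into 1 list is not given in the sources used here. In 2 lists the deposited tags of a peak are whole counts. The deposited normalized tag count is a signal per 10 M tags. The deposited findPeaks score was used for ranks within a list. The deposited ratio to input (fold) was used as a filter in an alternative. The authors' p-values were not used. Lists were assigned to groups by the sex, treatment and day in their names, and 0 columns of other samples were left out.

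Depth was recovered from the tags as counted or from the spacing of the low normalized values, of which 100.0% were whole multiples in every list. Overlaps were computed with scripts using pandas 2.3.3 and numpy 2.4.6 (Python 3.11.15), with sequences read by pysam 0.24.0 and intervals from scipy 1.17.1, against curated RefSeq transcripts of GRCm38.p6, 39650 transcripts of 21000 protein-coding genes, and tested on simulated data against bedtools 2.31.1, where 80 of 80 planted overlaps were found. Intervals are exact Poisson 95% intervals of tag numbers, cover counting error only, and PCR duplicates were not separated. All 10 genes are named. Genes of the pathway lists were named when marked in all or none of the lists or with a pattern of their own, at most 5 per list in alphabetical order. The members and the gene lists were chosen with earlier results of these data known. Alternatives were lists of equal length, a fold over input of at least 4, predicted models, a window of 5 kb, a promoter of 500 bp on either side, an overlap of 50% of a peak and, chosen after seeing the data, each list left out in turn and lists of equal length by tags per kb.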

Additional observations from a re-analysis of the deposited data

Results flagged for a closer look

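From vehicle to day 4 the number of peaks at the 10 genes moved in opposite directions in the sexes. The difference (day 4 minus vehicle) was -53 in males and 25 in females. At 7 of the 10 genes the directions were opposite, as at 47.0% of all genes and at 66.3% of the 14883 genes with a peak in both sexes in these lists, so the count at the 10 genes was near that of genes with peaks. The difference was -1 in males and 2 in females at Prkaa1, -6 and 1 at Prkaa2, -3 and 2 at Prkab1, -21 and 7 at Prkag2, -4 and 1 at Prkag3, -5 and 5 at Adipor1 and -6 and 10 at Adipor2. At the other 3 genes they were not, with -1 and -2 at Prkab2, -3 and -1 at Stk11 and -3 and 0 at Prkag1. With 1 list per group these differences were not tested. The list lengths moved the same way, from 87600 to 17482 peaks in males and from 38861 to 67503 in females, and the depth from 31.6 to 7.52 and from 27.5 to 49.0 M tags. In lists of equal length, a fall in males together with a rise in females was not found. Ranked by score, the peaks at the 10 genes went from 17 to 18 in males and from 15 to 13 in females, each against its direction in the full lists. Ranked by tags per kb, they went from 20 to 18 in males and from 15 to 13 in females, a fall in both sexes.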

How the results depend on the processing

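With every list reduced to its 17482 highest scores, the peaks at the 10 genes numbered 17 in male vehicle, 15 in female vehicle, and 13, 17 and 18 at female days 4, 6 and 8. Genes with a promoter peak numbered 4, 5 and 6 at female days 4, 6 and 8. PREs numbered 11 in males and 11 in females, of which 2 and 4 were present at day 8. Vehicle peaks absent at day 4 numbered 11 of 17 in males (71.1% of all) and 13 of 15 in females (67.5%). Reduced by tags per kb instead, peaks numbered 20 and 15 with vehicle in males and females and 13, 22 and 17 at female days 4, 6 and 8. Genes with a promoter peak then numbered 5 in male vehicle. PREs numbered 13 in males and 5 in females, of which 3 and 3 were present at day 8. Vehicle peaks absent at day 4 numbered 15 of 20 in males (77.6% of all) and 6 of 15 in females (63.1%). A fold over input of at least 4 left 5 genes with a promoter peak at male day 6 (13.1% of all genes). At male day 8 it left 2 such genes (20.2%) and 11 peaks. Of 29 female PREs at that threshold, 13 were present at day 8 (39.5% of all female PREs). A shortened list can hold no more peaks at these genes than the full one. Counts that compare lists can rise, as male PREs did, from 7 to 11 by score and to 13 by tags per kb. The causes of the changes were not tested. The 5 kb window, predicted models, the promoter of 500 bp on either side and the 50% overlap moved no count by over 1.5 times. Promoter peaks in every list were held by 5 genes (12.6% of all genes), and by 6 when the male day 4 or the female vehicle list was left out (15.5% and 16.2%). No replicate could be left out, since 1 list was deposited per group. No paired analysis was possible because the peak lists carry no replicate numbers. At 7.52 M tags, peaks of the male day 4 list rested on as few as 9 tags at these genes, so an absent peak there may lie below detection.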
